A study of Mus musculus with 6 samples.

Results

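The genes described here build, fold and dispose of proteins in the endoplasmic reticulum (ER), or sense and answer the stress of misfolded protein there. They were chosen by name, as 36 gene symbols out of the 54532 genes of the expression table, with no use of their measured values. Ddit3 stands in the table in 2 rows, so the 36 genes fill 37 rows. Testing needed 1 FPKM or more in 3 or more libraries, which 35 of the 36 genes reached and Derl3 did not. FPKM are fragment counts divided by gene length and by the size of the library, so that genes can be compared with each other.

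RNA was sequenced from CD11b-positive cells of bone marrow, purified by positive selection from tibias of mice aged 12 weeks. CD11b is an integrin chain of myeloid cells, so these cells include neutrophils, monocytes, macrophages and their precursors. The labels put 3 libraries in the genotype Tshr+/+ (wild type) and 3 in Tshr-/-, which another label calls a knockdown of Tshr, the receptor of thyroid-stimulating hormone. All 6 libraries share the label of osteoclast differentiation as treatment, with no time given, and the labels name no other allele, strain or agent. Each title carries a mouse number from 1 to 3, read here as 1 mouse per library. Which part of Tshr the mutation removes was not given in the sources used here.

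The ER lumen holds chaperones, which keep new proteins from clumping, and disulfide isomerases, which set their cysteine bonds. When unfolded protein builds up, the sensors IRE1, PERK and ATF6 (genes Ern1, Eif2ak3 and Atf6) start the unfolded protein response: IRE1 splices the mRNA of Xbp1, PERK slows translation and favours ATF4, and ATF6 is cut in the Golgi to a transcription factor. Granulocyte precursors fill their granules through the ER, and plasma cells depend on it for antibody secretion. Gene-level FPKM sum the spliced and unspliced forms of Xbp1, and they do not show sensor activity.

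Tshr itself was still found in libraries of both labels, with 55, 55 and 45 fragments in Tshr+/+ and with 40, 25 and 1 fragments in the libraries labelled Tshr-/- 1, 2 and 3. The levels were 0.537, 0.552 and 0.405 FPKM against 0.414, 0.297 and 0.00825 FPKM. Directions below are therefore those of the labels, and counts are also given without the libraries labelled Tshr-/- 1 and 2. Between 14698126 and 17976477 fragments were assigned to genes per library. The defining markers of the sort were abundant, with Itgam, the gene of CD11b, at 87.4 to 134 FPKM, and the summed level of 8 myeloid markers between 68446 and 101258 FPKM. Tshr+/+ 3 stood apart: without it, the groups did not overlap for 35.5% of the 10913 genes tested, against 6.77% with all 6 libraries. Deviations from the group means correlated between libraries of the same number (r = 0.24, 0.26 and 0.47 for numbers 1 to 3). Those of Tshr+/+ 2 and Tshr-/- 1, of unlike number, did so too (r = 0.34). The block on the mouse number was run as an alternative.

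The share of a library's fragments that fell on the 36 genes was lowest in the library labelled Tshr-/- 2, at 0.448%, and highest in Tshr-/- 3, at 0.650%. It was 0.623% in Tshr-/- 1 and between 0.495% and 0.574% in Tshr+/+. Levels per gene length covered a wide range. Atf4, the transcription factor of the amino acid and ER stress response, was the most abundant at a mean of 238 FPKM over the 6 libraries. P4hb, a disulfide isomerase, followed at 181 FPKM, then Hspa5, the gene of the chaperone BiP, at 160 FPKM and Calr, the gene of calreticulin, at 119 FPKM. The ranges of Atf4, P4hb and Hspa5 over the libraries overlap, so their order is not firm. At the lower end stood the sensors Atf6 at 5.34 FPKM and Ern1 at 5.20 FPKM, Derl2, a channel protein of ER-associated degradation, at 3.89 FPKM, and Trib3, a pseudokinase induced by ATF4 and CHOP, at 1.19 FPKM.

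**Figure D1:**
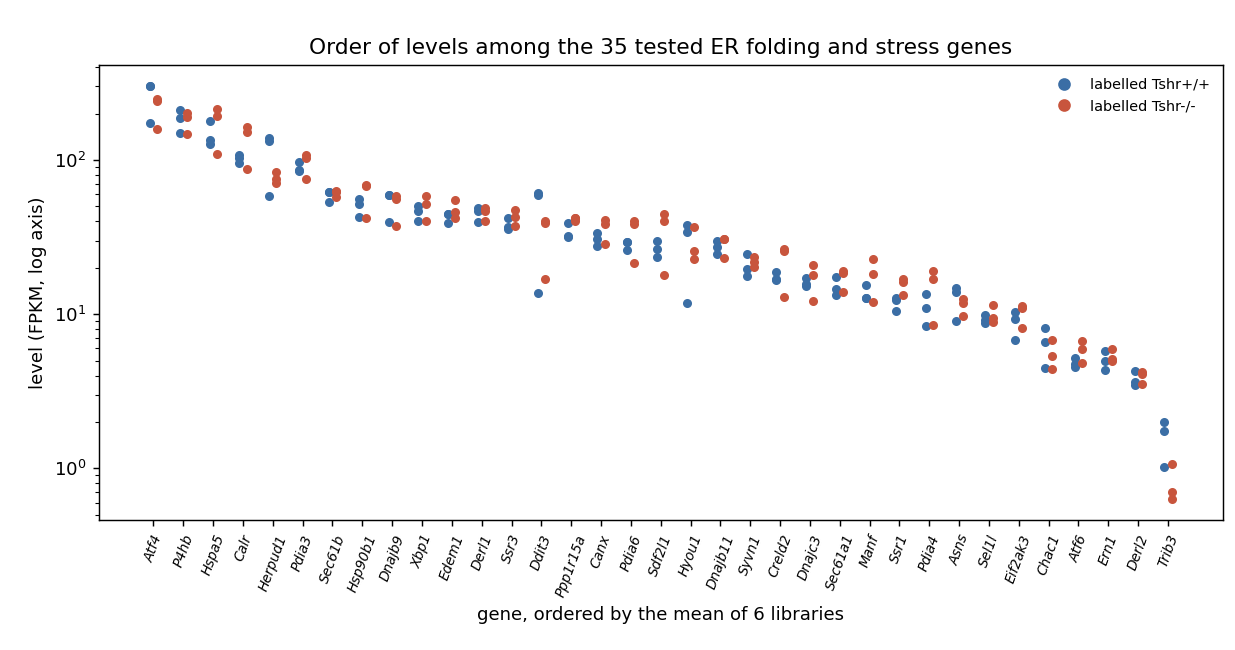
Level in FPKM (log axis) of each of the 35 tested genes in each library, with points in blue for the 3 libraries labelled Tshr+/+ and in red for the 3 labelled Tshr-/-, and genes ordered by their mean. Atf4 is highest with a mean of 238 FPKM, Trib3 lowest with 1.19 FPKM, and the spread of Ddit3 and Hyou1 over libraries is wider than that of their neighbours.

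Derl3, a derlin of secretory cells, was close to absent. It had 0.412, 0.545 and 0.895 FPKM in Tshr+/+ 1 to 3 and 0.281, 0.215 and 0.921 FPKM in Tshr-/- 1 to 3, from 6 to 37 fragments per library. Both libraries numbered 3 were the highest of their group, and the groups overlapped. The second row named Ddit3, a gene model of 105 bp inside the main one, was listed at 0 in all 6 libraries.

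A known sequence of the ER stress response was found in several of them. The genes were chosen by name for that response, so a high share of this sequence among them is no independent result. The ER stress response element (ERSE) is known as a site for ATF6, XBP1 and the CCAAT factor NF-Y, and consists of CCAAT, 9 bases of any kind and CCACG. It was searched on both strands, from 250 bases before to 50 bases after the start of each gene, in RefSeq promoters of GRCm38.p6. Of the 36 genes, 31 had a promoter sequence there. ERSE was found in 9 of the 31 (29.0%), against 39 of all 32851 promoters (0.119%). Among tested genes with a promoter, 12 carried it, and 8 of these are genes described here. The others are Alg12, Hnrnpa3, Pan2 and Ero1lb (Ero1b in RefSeq), which belongs to the further folding and oxidation genes below and oxidises the disulfide isomerases. The windows of the 8 tested genes, on the strand of the gene, show how the element sits in each, with its fixed letters in capitals; where it lies on the opposite strand it reads CGTGG and then ATTGG.
Hspa5, chr2:34772013-34772055, plus strand: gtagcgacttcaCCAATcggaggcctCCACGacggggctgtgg
Hsp90b1, chr10:86705626-86705668, minus strand: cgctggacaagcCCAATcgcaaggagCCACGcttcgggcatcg
Hsp90b1, chr10:86705521-86705563, minus strand: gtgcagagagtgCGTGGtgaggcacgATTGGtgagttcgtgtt
Calr, chr8:84847063-84847105, minus strand: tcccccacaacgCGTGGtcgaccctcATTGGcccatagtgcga
Canx, chr11:50325788-50325830, minus strand: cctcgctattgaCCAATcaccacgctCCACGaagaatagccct
Pdia6, chr12:17266479-17266521, plus strand: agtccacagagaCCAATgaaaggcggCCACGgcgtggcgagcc
Dnajc3, chr14:118937815-118937857, plus strand: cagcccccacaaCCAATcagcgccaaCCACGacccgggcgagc
Creld2, chr15:88819508-88819550, plus strand: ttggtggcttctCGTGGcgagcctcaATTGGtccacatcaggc
Syvn1, chr19:6046520-6046562, plus strand: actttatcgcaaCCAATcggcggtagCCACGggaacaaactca

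These elements ended between 26 bases (Syvn1) and 194 bases (the farther one of Hsp90b1) before the RefSeq start of the gene. The gene coordinates given below are those of GENCODE M21, in which Hspa5 starts earlier, at chr2:34771970. By those coordinates its element lies inside the gene. Derl3, which was too low to test, is the remaining gene with ERSE. A second form, ERSE-II (ATTGG, 1 base of any kind and CCACG), was found in Herpud1 and Dnajb11, 2 of 31 (6.45%), against 0.0365% of all promoters. Herpud1 also held the C/EBP-ATF response element TGATGCAA, a site of ATF4 known by the name CARE, as did Chac1: 2 of 31 (6.45%), against 0.895% of all promoters. The XBP1 element TGACGTGG was found in 0 of 31 and in 0.676% of all promoters. The window of Herpud1 with ERSE-II and those with CARE are shown because these genes had another pattern over libraries than the chaperones.
Herpud1 with ERSE-II, chr8:94386365-94386399, plus strand: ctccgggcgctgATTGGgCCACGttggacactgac
Herpud1 with CARE on the opposite strand, chr8:94386305-94386336, plus strand: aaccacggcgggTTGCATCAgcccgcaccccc
Chac1 with CARE on the opposite strand, chr2:119351037-119351068, plus strand: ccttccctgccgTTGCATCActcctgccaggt

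A match is a run of letters and was not tested for binding.

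The comparison of the genotypes asks which of these genes differ in CD11b-positive cells between the libraries labelled Tshr+/+ and Tshr-/-. None of the 35 tested genes passed limma's test at an adjusted p under 0.05 (0 of 35; 0 of 10913 genes, or 0%, passed). The adjusted p was 0.9997 for each of the 35. Before adjustment, 2 of 35 (5.71%), Ssr1 and Trib3, had a p under 0.05, against 2.9% of all genes tested. With voom, which models whole fragment counts, 0 of 36 passed, and with a weight for each library 0 of 35. Higher means on the log2 scale in the libraries labelled Tshr-/- were found for 27 of 35, where the share over all genes tested was 47.1%. The median log2 fold change was 0.12, against -0.01 over all genes tested. Genes are not independent replicates, and this count was not tested. Fewer cells of a type and less RNA per cell cannot be told apart in such bulk libraries.

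**Figure D2:**
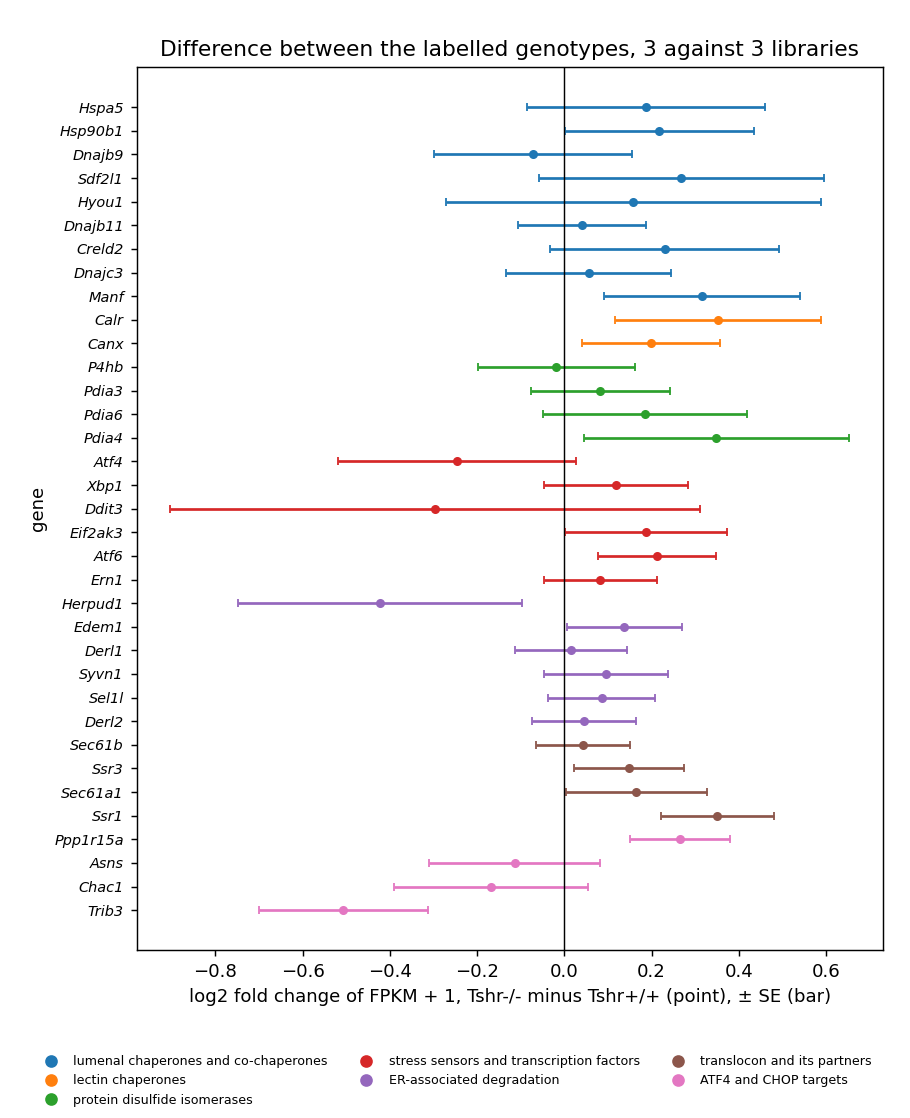
Difference between the group means on the log2(FPKM + 1) scale, Tshr-/- minus Tshr+/+ (point), with its standard error (bar), for the 35 tested genes, coloured by role. Most points lie above 0, those of Trib3, Herpud1, Ddit3 and Atf4 lie farthest below it, and no gene passed the test.

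For 8 of 9 lumenal chaperones and co-chaperones the mean was higher in Tshr-/- (median log2 fold change 0.19), and none passed. Most of them held their highest and their lowest values within the group labelled Tshr-/-. Hspa5 (chr2:34771970-34777547; coordinates of genes are those of GENCODE M21 on GRCm38), whose protein BiP binds unfolded chains and holds the sensors inactive, had 179, 127 and 135 FPKM in Tshr+/+ 1 to 3 and 215, 110 and 193 FPKM in Tshr-/- 1 to 3. Hsp90b1 (chr10:86690209-86705509), the gene of the chaperone GRP94, had 56.0, 42.8 and 52.2 FPKM against 69.3, 42.0 and 68.0 FPKM. For both, Tshr-/- 1 and 3 lay above every Tshr+/+ library and Tshr-/- 2 lay below all 3 of them, so that the groups overlapped. The log2 fold changes were 0.19 ± 0.27 (SE) for Hspa5 and 0.22 ± 0.22 (SE) for Hsp90b1, smaller than or near their errors.

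Manf (chr9:106838312-106891979), the gene of a small secreted factor that binds BiP, had the smallest p of this role. Its levels were 15.4, 12.7 and 12.7 FPKM in Tshr+/+ and 22.8, 12.0 and 18.2 FPKM in Tshr-/-, with a log2 fold change of 0.32 ± 0.22 (SE; unadjusted p = 0.203, limma). Sdf2l1, a partner of BiP and its co-chaperones, had 26.3, 23.5 and 29.7 FPKM against 40.3, 18.0 and 44.7 FPKM, and Creld2, an ER protein with isomerase activity, had 18.7, 16.7 and 16.9 FPKM against 26.4, 12.9 and 25.6 FPKM. Sdf2l1 and Creld2 were named after their values were seen. In all 3 genes, as in Hspa5, Tshr-/- 1 and 3 were above every Tshr+/+ library and Tshr-/- 2 was the lowest of the 6. Among J-domain co-chaperones of BiP, Dnajb11 lay between 23.2 and 30.8 FPKM and Dnajc3 between 12.3 and 20.8 FPKM, each also lowest in Tshr-/- 2.

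Dnajb9 and Hyou1 went another way. Dnajb9, a co-chaperone that represses IRE1, had 59.4, 59.8 and 39.9 FPKM in Tshr+/+ and 55.7, 58.2 and 37.5 FPKM in Tshr-/-. Hyou1, a large chaperone that exchanges nucleotide on BiP, had 37.7, 34.1 and 11.7 FPKM against 36.9, 25.5 and 23.0 FPKM. Both were lowest in the library numbered 3 of each genotype. Without Tshr+/+ 3, the log2 fold change of Hyou1 went from 0.16 ± 0.43 (SE) to -0.35. Both genes were named after their values were seen.

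Calreticulin and calnexin, the lectins that hold glycoproteins until they are folded, were also highest in Tshr-/- 1 and 3. Calr (chr8:84841850-84846934) had 103, 96.2 and 107 FPKM in Tshr+/+, a narrow range, and 164, 88.1 and 153 FPKM in Tshr-/-. Canx (chr11:50293961-50325673) had 30.9, 27.7 and 33.7 FPKM against 38.3, 28.4 and 40.6 FPKM. Tshr-/- 2 lay below all Tshr+/+ libraries for Calr and between them for Canx. The log2 fold changes were 0.35 ± 0.24 (SE) for Calr and 0.20 ± 0.16 (SE) for Canx.

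Of the 4 disulfide isomerases, 3 had a higher mean in Tshr-/- (median log2 fold change 0.13). Pdia4 (chr6:47796141-47813430) had the smallest p, with 11.1, 8.43 and 13.5 FPKM in Tshr+/+ and 16.9, 8.50 and 19.0 FPKM in Tshr-/-. Its log2 fold change was 0.35 ± 0.30 (SE). P4hb (chr11:120560298-120573253), the most abundant of them, had 211, 186 and 149 FPKM against 203, 147 and 189 FPKM. Its difference of -0.02 ± 0.18 (SE) turned positive under several alternatives. Pdia3, which works with the lectin chaperones, had 97.1, 85.0 and 85.8 FPKM against 104, 75.5 and 108 FPKM. Pdia6, which also acts on the sensors, lay between 26.1 and 29.6 FPKM in Tshr+/+ and at 40.5, 21.7 and 38.2 FPKM in Tshr-/-. For Pdia3 and Pdia6, Tshr-/- 2 was again the lowest of the 6 libraries.

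The library labelled Tshr-/- 2 thus decided the overlap of the groups. It was singled out from these same values, so the counts without it are a description and no test. With all 6 libraries, the groups did not overlap for 2 of 35 genes (5.71%), Ssr1 and Ppp1r15a, against 6.77% of all genes tested. With each library scaled to its plain sum of fragments (equal totals), that count was 1 of 35 (2.86%), Trib3, against 5.77% of all genes. Without Tshr-/- 2 they did not overlap for 20 of 35 (57.1%), against 18.2% of all genes. In 19 of these (54.3%) the remaining Tshr-/- libraries were higher, against 8.95% of all genes, and in 1, Trib3, they were lower, against 9.27%. With equal totals the counts without Tshr-/- 2 were 17 of 35 (48.6%, against 15.2%), 16 of them higher (45.7%, against 9.93%). Limma still called 0 of 35 without that library. Leaving out a library can only add to the 2 genes of the deposited scaling. Their number was 4 without Tshr+/+ 1 (11.4%, against 10.5% of all genes), 3 without Tshr+/+ 2 (8.57%, against 11.3%) and 9 without Tshr+/+ 3 (25.7%, against 35.5%). It was 3 without Tshr-/- 1 (8.57%, against 11.8%) and 2 without Tshr-/- 3 (5.71%, against 16.8%). Without the libraries labelled Tshr-/- 1 and 2, Tshr-/- 3 lay outside the Tshr+/+ range for 26 of 35 genes (74.3%), against 48.7% of all genes. It lay above that range for 22 of 35 (62.9%, against 23.7%) and below it for 4, Atf4, Chac1, Dnajb9 and Trib3 (11.4%, against 25%). Tshr-/- 2 was the lowest of the 6 libraries for 11 of 35 genes (31.4%, against 18.9%), all of them from the chaperone, lectin and isomerase roles. The highest library was Tshr-/- 3 for 14 (40%, against 18.3%) and Tshr-/- 1 for 9 (25.7%, against 11.2%).

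**Figure D3:**
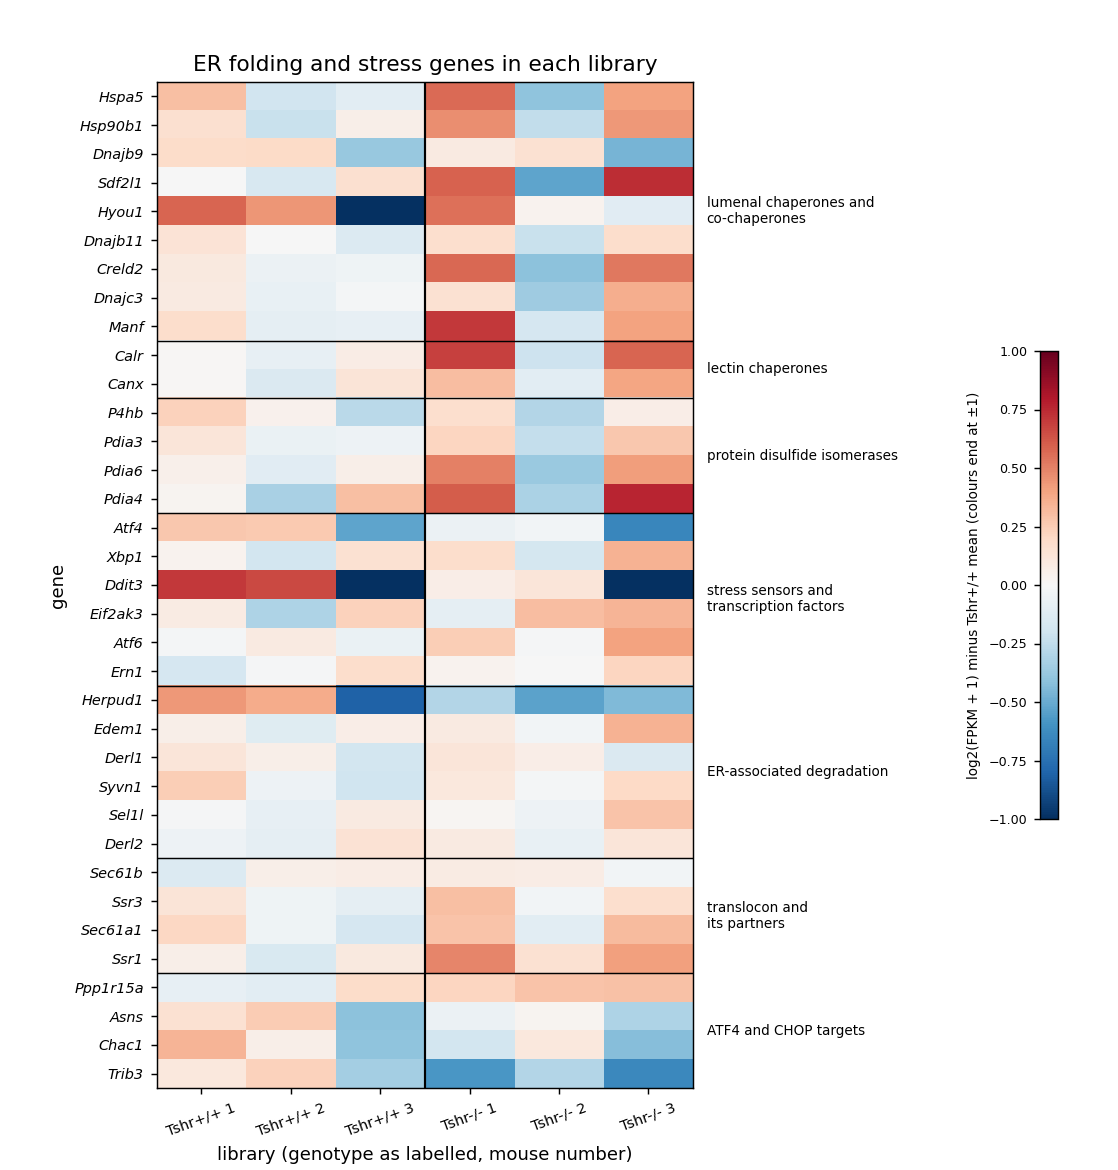
Level of the 35 tested genes in each library as log2(FPKM + 1) minus the mean of the 3 libraries labelled Tshr+/+, with genes in rows by role, red above and blue below that mean; colours end at ±1. The chaperone, lectin and isomerase rows are mostly red in Tshr-/- 1 and 3 and blue in Tshr-/- 2, while Atf4 and Ddit3 are bluest in the libraries numbered 3, and Herpud1 and Hyou1 in Tshr+/+ 3.

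The 8 tested genes with ERSE all had a log2 fold change above 0, between 0.06 and 0.35 with a median of 0.19, and for 7 of 8, all but Syvn1, Tshr-/- was higher without overlap when Tshr-/- 2 was left out. The same held for 9 of the 22 tested genes with a promoter sequence and no ERSE, and for 8.95% of all genes. Their mean log2 level relative to the Tshr+/+ mean was 0.42 in Tshr-/- 1, -0.26 in Tshr-/- 2 and 0.42 in Tshr-/- 3, and between -0.12 and 0.12 in the Tshr+/+ libraries. Over the 22 genes without ERSE the same means were 0.10, -0.07 and 0.02, with a median log2 fold change of 0.06. The difference between these sets was not tested. Tshr-/- 2 was singled out by low levels of these same genes, being the lowest library for Hspa5, Hsp90b1, Calr, Pdia6, Dnajc3 and Creld2. The counts without it therefore restate that pattern and are no separate support for it. The 4 other tested genes with ERSE had log2 fold changes below 0, between -0.11 and -0.01, and overlapped without Tshr-/- 2. Ero1lb had 9.16, 7.35 and 5.18 FPKM in Tshr+/+ and 7.58, 6.08 and 5.80 FPKM in Tshr-/-, so its lowest library of each genotype was that numbered 3.

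Markers of other cells moved between the libraries as well. The promyelocyte list, 7 of 7 genes tested, was summed at 2031, 2025 and 2585 FPKM in Tshr+/+ and 2777, 2199 and 2720 FPKM in Tshr-/-. Its most abundant genes were Elane, the neutrophil elastase gene (972, 909 and 1140 FPKM against 1256, 967 and 1191 FPKM), and Mpo, the myeloperoxidase gene (400, 384 and 464 FPKM against 552, 417 and 536 FPKM). Like the chaperones, this list was higher as a sum in Tshr-/- 1 and 3 than in Tshr-/- 2, and so were its genes other than Cebpe. Cebpe had 178, 209 and 201 FPKM in Tshr-/- 1 to 3. Tshr+/+ 3 had a mean log2 level of the list of 0.32 relative to the Tshr+/+ mean, as high as the 0.30 and 0.32 of Tshr-/- 1 and 3, while its lumenal chaperones stood at -0.17, its lectin chaperones at 0.10 and its isomerases at 0.01. Without Hyou1 and Dnajb9, the other 7 lumenal genes stood at -0.02 in Tshr+/+ 3 and at 0.46, -0.33 and 0.44 in Tshr-/- 1 to 3.

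Plasma cell markers were lowest in Tshr-/- 1 as a sum, most of which was Igkc. Summed over 10 listed genes, of which 6 were tested and 3 stayed under 1 FPKM in every library, they reached 618, 350 and 621 FPKM in Tshr+/+ and 188, 358 and 357 FPKM in Tshr-/-. Igkc, the kappa light chain constant gene, had 561, 316 and 556 FPKM against 164, 324 and 315 FPKM, and Jchain, which joins antibody multimers, had 39.9, 21.2 and 44.9 FPKM against 11.4, 22.2 and 22.3 FPKM. Mzb1 was also lowest in Tshr-/- 1, at 1.17 FPKM. The other tested genes of the list were lowest elsewhere: Prdm1 in Tshr+/+ 3 (0.611 FPKM), Irf4 in Tshr-/- 2 (0.684 FPKM) and Tnfrsf13b in Tshr+/+ 2 (6.34 FPKM). The library with the lowest plasma cell sum, Tshr-/- 1, was the highest for 9 of the 35 ER genes (25.7%, against 11.2% of all genes), among them Hspa5 and Calr. Tshr-/- 3 was the highest for 14 (40%, against 18.3%), among them Sdf2l1 and Canx. The osteoclast list was summed at 1489 FPKM in Tshr-/- 2 and at 832 to 1127 FPKM elsewhere. Nearly all of this was Mmp9, at 1419 FPKM in Tshr-/- 2 and 815 to 1112 FPKM elsewhere, so the sum alone does not stand for the list. Every listed gene but Ocstamp was nevertheless highest in Tshr-/- 2. Acp5 had 29.7 FPKM there and 5.12 to 11.8 FPKM elsewhere, and Atp6v0d2 had 1.16 FPKM there and 0.156 to 0.537 FPKM elsewhere. Oscar, Dcstamp and Calcr were highest there too, each under 1 FPKM. These genes were named after their values were seen. Ocstamp was highest in Tshr+/+ 1, at 0.289 FPKM. The osteoclast protease gene Ctsk, named after its values were seen, had 37.4 FPKM in Tshr-/- 2 and 3.30 to 15.1 FPKM elsewhere, and 4 of the 8 listed genes stayed under 1 FPKM in every library. The part of promyelocytes, other myeloid cells, plasma cells and osteoclast-lineage cells in the levels of the ER genes was not tested.

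**Figure D4:**
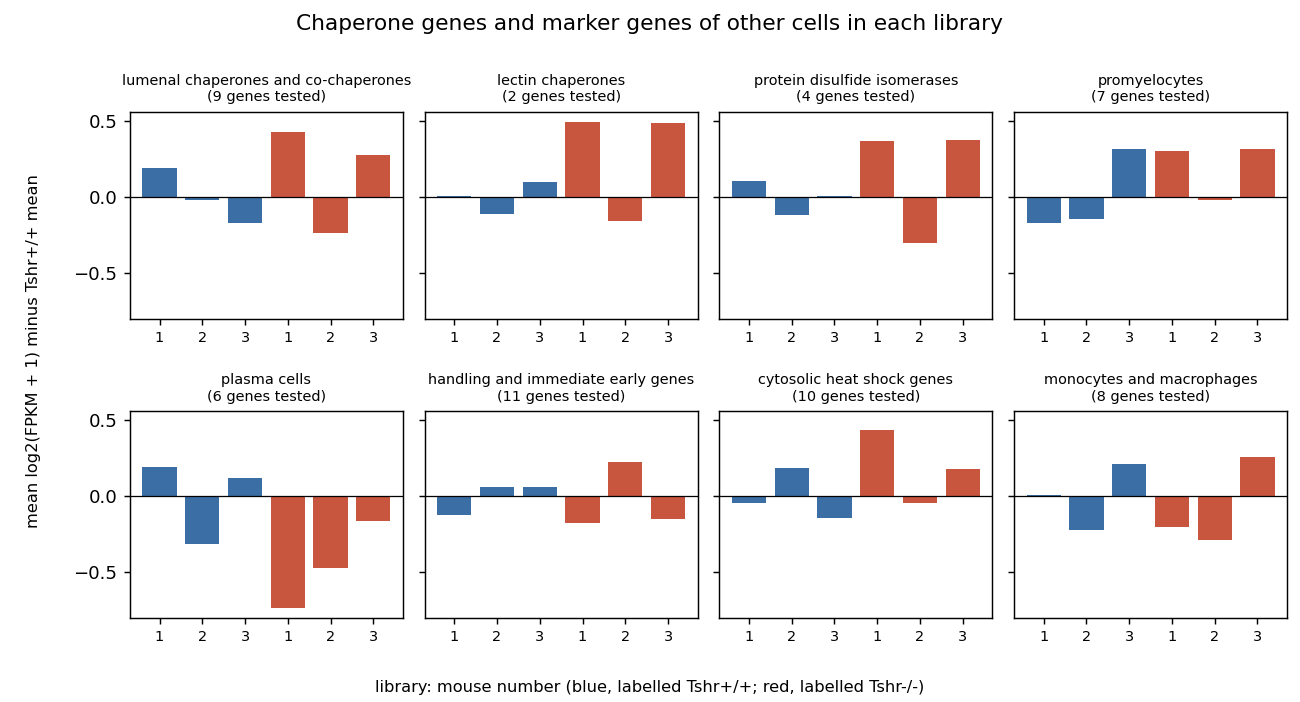
Mean log2(FPKM + 1) minus the Tshr+/+ mean over the tested genes of 8 lists, as bars from 0 for the libraries numbered 1 to 3 (blue, labelled Tshr+/+; red, labelled Tshr-/-). Chaperones, lectins and isomerases are above 0 in Tshr-/- 1 and 3 and below 0 in Tshr-/- 2, promyelocyte markers are also high in Tshr+/+ 3, and plasma cell markers are below 0 in all 3 libraries labelled Tshr-/-.

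The sensors and transcription factors went both ways, 4 of 6 with a higher mean in Tshr-/- (median log2 fold change 0.10). Atf6 (chr1:170704674-170867771) had the smallest p among sensors and factors, with 4.78, 5.22 and 4.57 FPKM in Tshr+/+ and 5.93, 4.80 and 6.75 FPKM in Tshr-/-, a log2 fold change of 0.21 ± 0.14 (SE). Ern1 lay between 4.34 and 5.97 FPKM and Eif2ak3 between 6.83 and 11.3 FPKM over all 6 libraries. Xbp1 (chr11:5520659-5525893), the target of IRE1, had 46.7, 40.0 and 50.6 FPKM against 51.7, 40.2 and 58.4 FPKM. Its lowest library of each genotype was that numbered 2, and the groups overlapped (0.12 ± 0.17, SE).

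Atf4 and Ddit3 were lowest in the library numbered 3 of both genotypes. Atf4 (chr15:80255184-80257541) had 304, 302 and 174 FPKM in Tshr+/+ 1 to 3 and 242, 248 and 160 FPKM in Tshr-/- 1 to 3. Ddit3 (chr10:127290774-127296288), the gene of the factor CHOP, had 60.9, 59.0 and 13.8 FPKM against 38.9, 40.4 and 17.0 FPKM, a 4.42-fold range from the lowest to the highest library. The groups overlapped for both genes. Ddit3 had 437 fragments in Tshr+/+ 3 and 586 in Tshr-/- 3, against 970 to 1779 elsewhere. The log2 fold changes between genotypes were -0.25 ± 0.27 (SE) for Atf4 and -0.30 ± 0.61 (SE) for Ddit3. That of Ddit3 was above 0 without Tshr+/+ 1 (0.06), Tshr+/+ 2 (0.03) or Tshr-/- 3 (0.10).

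Herpud1 (chr8:94386438-94395377), an adaptor of the degradation complex whose promoter holds ERSE-II and CARE, had 139, 133 and 58.3 FPKM in Tshr+/+ and 83.6, 70.6 and 75.6 FPKM in Tshr-/-. Tshr+/+ 1 and 2 lay above every Tshr-/- library and Tshr+/+ 3 below all of them. Its log2 fold change of -0.42 ± 0.33 (SE; unadjusted p = 0.237, limma) thus rests on Tshr+/+ 1 and 2. The library numbered 3 was the lowest of both genotypes for 8 of 35 genes (22.9%): Asns, Atf4, Chac1, Ddit3, Derl1, Dnajb9, Hyou1 and Trib3. Over all genes tested that share was 24.2%, so the count is near the background. It was the highest of both genotypes for 10 of 35 (28.6%, against 22%), among them Xbp1, Pdia4, Sdf2l1 and Edem1.

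**Figure D5:**
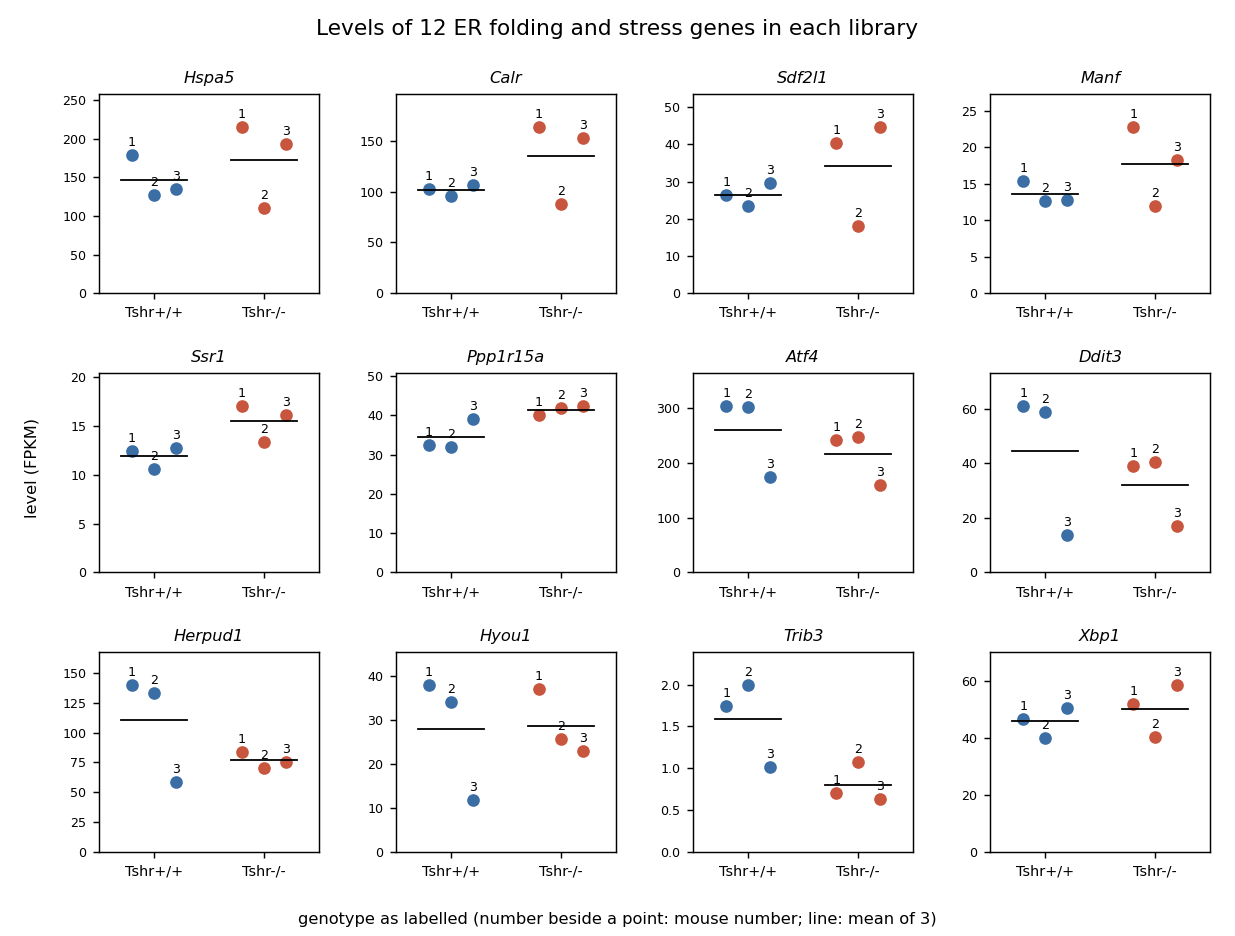
Level in FPKM of 12 genes in each library, with the mouse number above each point, blue for libraries labelled Tshr+/+ and red for Tshr-/-, and a line at the mean of 3; each axis starts at 0. Hspa5, Calr, Sdf2l1 and Manf are lowest in Tshr-/- 2, Atf4 and Ddit3 are lowest in the libraries numbered 3, and Ssr1 and Ppp1r15a are the 2 genes whose groups do not overlap in the deposited scaling (they do with equal totals).

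Of the 4 targets of ATF4 and CHOP, 3 had a lower mean in Tshr-/- and 1 a higher (median log2 fold change -0.14). Ppp1r15a (chr7:45522916-45526268), the gene of GADD34, which restores translation by removing phosphate from eIF2 alpha, had 32.4, 31.8 and 39.1 FPKM in Tshr+/+ and 40.0, 41.9 and 42.3 FPKM in Tshr-/-. The groups did not overlap, by the margin between 39.1 and 40.0 FPKM. The log2 fold change was 0.27 ± 0.11 (SE), with an unadjusted p of 0.0543 by limma. With equal totals the groups overlapped, with 42.3 FPKM in Tshr+/+ 3 above the 39.8 and 40.0 FPKM of Tshr-/- 1 and 2.

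Trib3 (chr2:152337422-152344032) had 1.74, 1.99 and 1.02 FPKM in Tshr+/+ and 0.702, 1.07 and 0.631 FPKM in Tshr-/-, from 24 to 70 fragments. The ranges of the groups overlapped only between 1.02 and 1.07 FPKM, and with equal totals they did not overlap (1.10 FPKM as the lowest in Tshr+/+, 1.02 FPKM as the highest in Tshr-/-). Its log2 fold change of -0.51 ± 0.19 (SE) had the largest size among the 35 genes (unadjusted p = 0.0355, limma) and did not pass. Asns, the asparagine synthetase gene, had 13.8, 14.9 and 9.05 FPKM against 11.8, 12.6 and 9.76 FPKM, and Chac1, a glutathione-degrading enzyme with CARE in its promoter, lay between 4.40 and 8.17 FPKM. For both, the difference between genotypes was smaller than its error.

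Among genes of ER-associated degradation other than Herpud1, values lay close together; over the role as a whole, 5 of 6 had a higher mean in Tshr-/- (median log2 fold change 0.06). Edem1 (chr6:108828641-108859356), which takes misfolded glycoproteins out of the folding cycle, had 44.7, 39.3 and 44.9 FPKM against 45.8, 42.0 and 54.9 FPKM. Syvn1, the ubiquitin ligase HRD1, lay between 17.6 and 24.4 FPKM, Derl1 between 39.4 and 48.8 FPKM, and Derl2 between 3.50 and 4.30 FPKM. Sel1l, the partner that holds HRD1 stable, lies 256235 bp beyond Tshr on chromosome 12 (chr12:91806043-91849157). It had 9.23, 8.74 and 9.94 FPKM in Tshr+/+ and 9.42, 8.96 and 11.5 FPKM in Tshr-/-, from 1075 to 1988 fragments. The groups overlapped, with a log2 fold change of 0.09 ± 0.12 (SE), and it was highest in Tshr-/- 3, the library with 1 fragment of Tshr.

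At the translocon, through which new chains enter the ER, 4 of 4 genes had a higher mean in Tshr-/- (median log2 fold change 0.16), with Ssr1 first. Ssr1 (chr13:37966605-37994217), the gene of the alpha subunit of the translocon-associated protein complex, had 12.4, 10.6 and 12.7 FPKM in Tshr+/+ and 17.0, 13.3 and 16.1 FPKM in Tshr-/-, from 1826 to 3383 fragments. All 3 Tshr-/- values lay above all 3 Tshr+/+ values, with Tshr-/- 2 the lowest of them. The log2 fold change was 0.35 ± 0.13 (SE) and had the smallest p of the 35 genes (unadjusted p = 0.0317, adjusted p = 0.9997, limma; between 0.0705 and 1 over the alternatives). With equal totals the groups overlapped, with 13.8 FPKM in Tshr+/+ 3 against 12.7 FPKM in Tshr-/- 2.

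Ssr3, the gamma subunit of the same complex, had 41.8, 36.9 and 35.7 FPKM against 47.2, 37.2 and 42.9 FPKM, a difference of 0.15 ± 0.13 (SE). Sec61b, the beta subunit of the channel, was the steadiest gene, with 53.6, 61.7 and 62.4 FPKM against 62.7, 62.1 and 58.0 FPKM, a 1.17-fold range. Sec61a1, the channel itself, lay between 13.3 and 19.0 FPKM. Differences between Ssr1 and these partners were not tested.

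Other genes of the same pathways were read from 5 lists of 140 genes, of which 138 were in the table and 124 were tested. Limma called 0 of 124, with adjusted p = 0.9997 for each, and 1, Eif2ak2, had an unadjusted p under 0.05. Means were higher in Tshr-/- for 66 and lower for 58, the median log2 fold change was 0.01, and the groups did not overlap for 6 (4.84%, against 6.77% of all genes).

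For import and N-glycosylation the median was 0.06 over 29 genes, 21 of them above 0, with Ddost, a subunit of the oligosaccharyltransferase, most abundant at 53.1 ± 3.37 and 56.7 ± 13.2 FPKM (SD, n = 3). Srp68, of the signal recognition particle, and Rpn2, another subunit of the transferase, had the smallest p there, at 14.9 ± 1.15 and 16.7 ± 1.51 FPKM and at 31.1 ± 1.32 and 35.8 ± 6.16 FPKM (SD, n = 3). Further folding and oxidation genes had a median of 0.03 over 26, 15 above 0. Hspa13, an ATPase of the HSP70 family, had 3.56 ± 0.384 and 4.74 ± 0.827 FPKM, and Pdia5, another isomerase, 0.800 ± 0.113 and 1.23 ± 0.242 FPKM (SD, n = 3), both without overlap, while the abundant prolyl isomerase gene Fkbp2 had 37.8 ± 4.43 and 40.5 ± 2.93 FPKM. Of 24 further degradation genes, 17 were below 0, a larger share than the 5775 of all 10913 genes. Their median was -0.03, against -0.01 over all genes, and the difference in shares was not tested. Ngly1, which strips glycans from extracted proteins, had 4.60 ± 0.497 and 5.62 ± 0.636 FPKM, the ubiquitin ligase gene Rnf139 had 5.33 ± 0.733 and 4.38 ± 0.683 FPKM, and Selenok, the most abundant, had 101 ± 25.9 and 91.6 ± 21.5 FPKM (SD, n = 3).

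In the list of the integrated stress response, 15 of 32 genes were above 0 and the median was -0.01. Eif2ak2, the gene of the kinase PKR, which interferon induces, had 4.74, 5.44 and 6.15 FPKM in Tshr+/+ and 7.11, 6.83 and 7.76 FPKM in Tshr-/-, without overlap (log2 fold change 0.36 ± 0.12, SE; unadjusted p = 0.0211, limma). Gdf15, a stress-induced cytokine, had 5.34 ± 1.55 and 4.10 ± 0.683 FPKM, and Cebpb, the most abundant, 1102 ± 281 and 975 ± 312 FPKM (SD, n = 3). The amino acid transporter genes Slc7a11 and Slc3a2, ATF4 targets named after their values were seen, were lowest in the libraries numbered 3, like Ddit3. Slc7a11 had 21.6, 23.5 and 3.95 FPKM in Tshr+/+ and 10.7, 8.96 and 3.40 FPKM in Tshr-/-, and Slc3a2 had 120, 104 and 40.2 FPKM against 77.6, 71.1 and 48.2 FPKM. Other genes of the list, such as Cebpg, Xpot, Wars and Iars, were highest in the libraries numbered 3. Cebpg had 3.72, 3.76 and 6.68 FPKM against 4.66, 4.68 and 6.61 FPKM. Over all genes tested, the library numbered 3 was the lowest of both genotypes for 24.2%. Among 13 other sensors and regulators the median was 0.02. Creb3l2, a relative of ATF6, had 1.58 ± 0.279 and 2.23 ± 0.536 FPKM, and Nfya, a subunit of the factor that binds CCAAT, had 11.0, 11.1 and 11.5 FPKM against 12.4, 12.2 and 12.4 FPKM, without overlap (0.13 ± 0.09, SE). Tmbim6, an ER membrane protein that limits cell death, was the most abundant of them at 208 ± 1.74 and 203 ± 20.9 FPKM (SD, n = 3).

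Handling of the cells can move stress genes, and 11 immediate early genes were read for that reason. They were summed at 3273, 3799 and 4399 FPKM in Tshr+/+ and 3251, 4209 and 3732 FPKM in Tshr-/-. The sum was lowest in the libraries numbered 1, and its genes differed among themselves. Like Atf4 and Ddit3, 4 of the 11 (Egr1, Fosb, Ier3 and Nr4a1) were lowest in the library numbered 3 of both genotypes, and 2 (Dusp1 and Fos) were highest there. Over all genes tested, 24.2% were lowest and 22% highest there, and these counts were not tested against those shares. Fosb had 317, 389 and 158 FPKM in Tshr+/+ and 201, 317 and 193 FPKM in Tshr-/-, while Fos, one of the most abundant, had 492, 531 and 1080 FPKM against 583, 684 and 923 FPKM. These genes were named after their values were seen. The part of handling in these levels was not tested.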

How the data were processed

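Values are FPKM per gene and library, scaled by the authors and used as deposited. Per the submitters' processing notes the build was GRCm38 (mm10); which aligner and counter made the table, and whether strand was used, was not given in the sources used here. Columns headed HO were taken for Tshr-/- (homozygous). The 10913 genes reaching 1 FPKM in 3 or more libraries were compared on the log2(FPKM + 1) scale, which understates changes of low genes. The test was a two-sided group contrast in limma 3.58.1 (R 4.3.3) with a variance trend and Benjamini-Hochberg adjustment over all of them, at a threshold of 0.05. The script was tested on simulated data. Multiplying FPKM by gene length gave whole fragments (within 0.01, for 100% of values), which voom tested as an alternative.

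The replicates are separate mice by title only, so p-values measure the spread between these libraries. Deviations from the group means correlated over genes between libraries of the same number (r = 0.24, 0.26 and 0.47 for numbers 1, 2 and 3). A block on the number was therefore run as an alternative, while the main test did not pair the libraries. Tshr+/+ 2 correlated more with Tshr-/- 1 (r = 0.34), so the number is not singled out, and no label says what it shares. Values per library were given for the 2 most abundant genes of each role, those with the smallest p or without overlap, those under the filter, and Sel1l; from each further pathway list, the 2 lowest p-values and the highest level were named. The genes and lists were chosen with earlier results of these data known. Promoters were matched by symbol, 364 of them through a RefSeq synonym. March6 and Hm13 were listed and had no row under these names. Manf, Hsp90b1, Sec61a1, Eif2ak3 and Derl2 share over 100 exon bases with other genes in GENCODE M21, so fragments may be divided there.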

Additional observations from a re-analysis of the deposited data

How the results depend on the processing

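Under 16 alternatives, 0 of the ER genes passed, and 0 of the other pathway genes; with the replicate block the count stayed at 0 and no call changed. Over all genes, library weights called 24 (13 higher, 11 lower), and leaving out single libraries called between 0 and 2. The median log2 fold change of 0.12 was between 0.06 and 0.22 without single libraries, and 0.28 without the libraries labelled Tshr-/- 1 and 2. The count of 2 genes without overlap was 1 (Trib3 in place of Ssr1 and Ppp1r15a) with equal totals, between 2 and 20 without single libraries, and 26 without the libraries labelled Tshr-/- 1 and 2; the last compares 1 library with 3. In 15 of 35 genes the direction changed at least once; the cause was not tested. P4hb was at 0.019 with equal totals, 0.058 with quantile scaling, 0.031 with library weights and 0.067 without the libraries labelled Tshr-/- 1 and 2. In that last setting Sec61b was at -0.026, Derl1 at -0.14 and Hyou1 at -0.11. Without single libraries, log2 fold changes ranged from -0.15 to 0.12 for P4hb, -0.026 to 0.082 for Sec61b, -0.26 to 0.12 for Dnajb9, -0.98 to 0.096 for Ddit3, -0.37 to 0.0021 for Chac1, -0.0013 to 0.17 for Ern1 and -0.32 to 0.011 for Asns. They ranged from -0.0024 to 0.11 for Derl2, -0.075 to 0.094 for Derl1, -0.35 to 0.45 for Hyou1, -0.028 to 0.17 for Dnajb11, -0.0036 to 0.22 for Syvn1, -0.010 to 0.24 for Pdia3, -0.0995 to 0.26 for Dnajc3 and -0.014 to 0.15 for Sel1l. Derl3 rests on 6 to 37 fragments a library and Trib3 on 24 to 70.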

Other observations

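Chaperones outside the ER, most of them of the cytosol, were read from a list of 11 genes, of which 10 were tested. Hspa8, the constitutive HSC70 gene and the most abundant, had 222, 186 and 204 FPKM in Tshr+/+ 1 to 3 and 289, 133 and 255 FPKM in Tshr-/- 1 to 3. Hsp90ab1, the constitutive HSP90 gene, had 203, 206 and 203 FPKM against 247, 191 and 239 FPKM. Hsph1, an HSP110 chaperone named after its values were seen, had 1.42, 0.930 and 1.74 FPKM against 3.95, 1.02 and 3.56 FPKM. For Hspa8 and Hsp90ab1, Tshr-/- 1 and 3 were above and Tshr-/- 2 below every Tshr+/+ library, as for Hspa5, and none of the 3 passed limma's test (adjusted p = 0.9997). The heat-inducible genes Hspa1a and Hspa1b, also named after their values were seen, were highest in Tshr+/+ 2, at 10.2 and 10.7 FPKM, and lowest in Tshr+/+ 3, at 2.28 and 2.03 FPKM.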
